A study of Capra hircus with 24 samples.

Results

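Dermal papilla cells of secondary hair follicles were compared with those of primary follicles in female cashmere goats (Capra hircus) in June, 3 libraries against 3. The secondary June female libraries are labelled as papilla cells of secondary follicles at the start of anagen, the growth phase of the hair cycle, and the primary June female libraries as papilla cells of primary follicles of the same sex, month and phase. These 6 libraries, chosen by their labels and by no measured value, are part of 24 in 8 groups of 3, which also cover males in June and both sexes in October, when the labels place the follicles in anagen proper. The tissue of all groups is goat skin, and the labels name no treatment, age or genotype. Each library carries a biological replicate number, with no word on whether replicates came from separate animals, pooled animals or separate cultures, so p-values measure the spread between these libraries. Whether the cells were freshly isolated or grown in culture, and how the 2 follicle types were separated, cannot be read from the labels.

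The dermal papilla is a condensation of mesenchymal cells at the base of the hair follicle. It instructs the overlying epithelium through secreted Wnt, BMP, FGF and insulin-like growth factor signals, and the number of its cells and their signals set the size and growth of the fibre. Cashmere goats carry primary follicles, which form first in the fetus and make the coarse guard hair, and the later secondary follicles, which make the fine cashmere undercoat and cycle with the season.

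For each gene and library the authors deposited 1 normalised signal value. The values summed to between 993853 and 1025030 in the 6 libraries, and their read depth is unknown. Testing was limited to the 13049 of 20326 genes that reached 1 in 3 of the 24 libraries or more, on the log2(value + 1) scale, on which the differences of weakly expressed genes come out smaller than their ratios. Libraries of the same group correlated with r of 0.997 among secondary and from 0.995 to 0.996 among primary June females across genes, which are not independent replicates, and libraries of different follicle type with r from 0.975 to 0.978. The first principal component of the 6 libraries held 82.8% of their variance and separated the follicle types, and the second, with 6.18%, set primary libraries 2 and 3 apart, at 10.2 and -12.3. Mitochondrially encoded genes took 8.89% to 9.45% of the summed values in secondary and 9.14% to 9.75% in primary libraries (two-sided exact permutation test p = 0.7; the smallest p that 3 against 3 can give is 0.1). In what follows, values after ± are the SD of 3 libraries for a level and the standard error of the fit for a log2 difference, which is secondary minus primary, and a gene was called at a Benjamini-Hochberg adjusted p under 0.05 in limma over all 13049 genes.

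Markers of mesenchymal cells were high in both groups, and those of most other skin cells were low or absent. The 26 papilla markers summed to 1386 to 1416 in secondary and 1865 to 1965 in primary libraries, and the groups did not overlap (two-sided exact permutation test p = 0.1, the smallest possible). Of the 21 tested papilla markers 5 rose and 12 fell, with a median log2 difference of -0.48. CORIN, SOX18, PROM1, HHIP and BMP6 stayed under 1 in all 6 libraries, and CORIN, a surface protease that marks the papilla in mice, had 0.14 to 0.34 in secondary and 0.17 to 0.25 in primary libraries. The 11 dermal sheath markers, some of them smooth muscle genes, summed to 12356 to 12501 in secondary and 11921 to 13314 in primary libraries (exact p = 1), and the 15 markers of interfollicular fibroblasts to 2974 to 3114 and 2929 to 3002 in secondary and primary libraries (exact p = 0.2). In both pairs the groups overlapped.

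Keratinocyte markers summed to 99.7 to 109 in secondary and 111 to 121 in primary libraries, of which S100A2 alone made 93.2 ± 4.19 and 102 ± 5.58. Of the 24 keratinocyte markers 18 stayed under 1 in all 6 libraries, TP63 at 0.25 to 0.39 in secondary and 0.19 to 0.23 in primary libraries. Of the 20 tested ones, some of which passed the filter only through other groups, 5 fell and the other 15 were not called, and the falls numbered 2 when a value of 1 was asked of 3 of the 6 libraries, KRT5 falling with 0.55 ± 0.114 in secondary and 1.78 ± 0.166 in primary cells. The immune list summed to 21.7 to 23.5 and 24.3 to 26.3, the endothelial list to 34.4 to 38.1 and 21.3 to 22.7, and the melanocyte list to 10.2 to 11.1 and 12.0 to 14.5 in secondary and primary libraries, with no overlap in any of the 3. In these lists 15 of 18 immune, 9 of 10 endothelial and 8 of 10 melanocyte genes stayed under 1 in all 6 libraries. Each of these sums therefore rests mostly on its few other genes and does not describe the list as a set. PTPRC, which all white blood cells carry, reached at most 0.01 in secondary and 0.02 in primary libraries. CDH5 of endothelial cells, TYRP1 and DCT of melanocytes, MS4A1, C1QB and CPA3 of immune cells, CDH19 of Schwann cells, MYOD1 and MYOG of muscle, and KRT27, KRT74, KRT35 and PADI3 of the hair shaft and its sheath were listed at 0 in all 6 libraries. The pericyte list summed to 186 to 198 in secondary and 194 to 214 in primary libraries, the Schwann and neural list to 76.0 to 80.6 and 53.1 to 57.7, the adipocyte list to 16.1 to 17.6 and 10.9 to 13.3, the hair matrix list to 26.1 to 29.6 and 32.2 to 38.5, the gland list to 113 to 115 and 107 to 111, and the skeletal muscle list to 2.96 to 3.46 and 5.83 to 6.78, in the same order of groups. Genes under 1 in all 6 libraries made up 4 of 8 pericyte, 6 of 10 Schwann and neural and 3 of 8 adipocyte markers. They made up 9 of 12 hair matrix, 5 of 10 gland and 8 of 9 skeletal muscle markers. The plot of summed markers shows these levels by library. The part of these markers in the gene differences below was not tested. In bulk RNA, fewer cells of a type and less RNA per cell cannot be told apart.

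**Figure D1:**
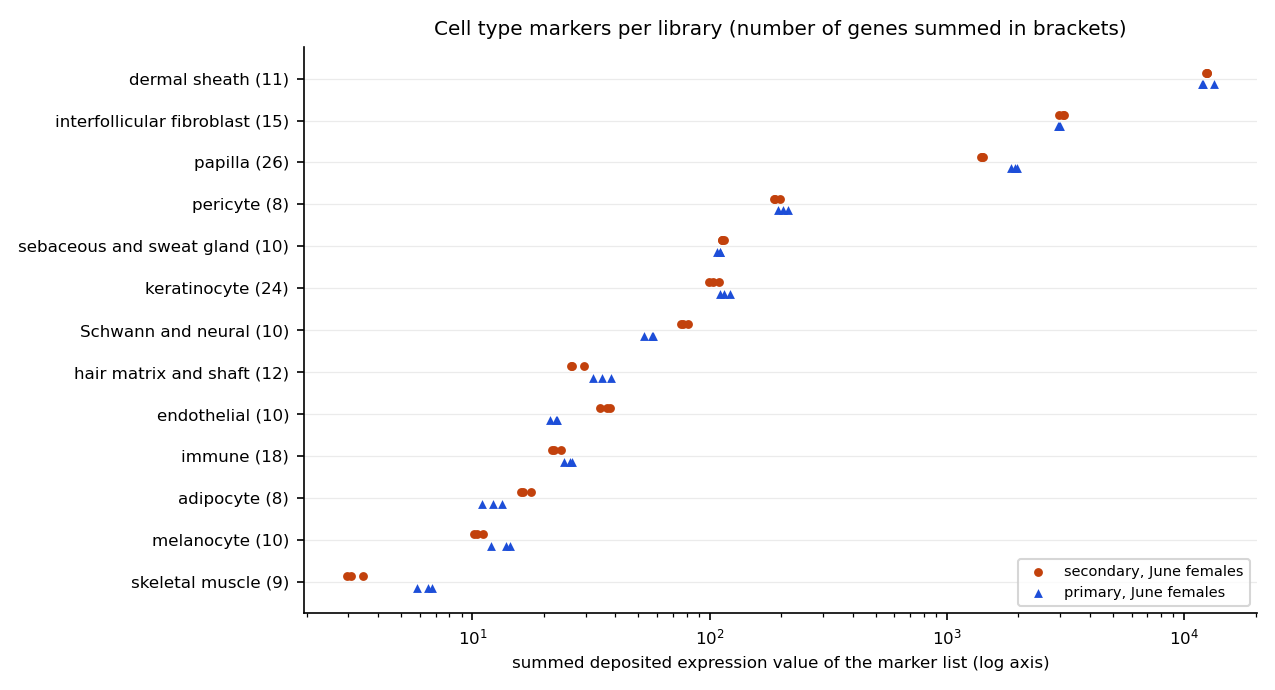
Summed deposited expression values of 13 cell type marker lists (rows, genes summed in brackets) in each library, on a log axis: circles are the 3 secondary, triangles the 3 primary June female libraries. The papilla list lies at 1386 to 1416 in secondary and 1865 to 1965 in primary libraries, dermal sheath markers overlap, and immune, melanocyte and muscle lists are below 30 in all 6 libraries.

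The follicle types differed at 6435 genes, 49.3% of those tested. In secondary cells 3267 genes (25.0%) were higher and 3168 (24.3%) were lower, and the median log2 difference over all tested genes was 0.0027. Most of these differences were small: the median size among called genes was 0.34 on the log2 scale, against a median standard error of 0.078. A difference of at least 2-fold was reached by 306 genes higher (2.35%) and 251 lower (1.92%) in secondary cells, and one of at least 4-fold by 15 and 33 genes. The 3 secondary libraries did not overlap the 3 primary ones at 7565 genes, 58.0% of those tested. Counts of called members below are to be read against these shares.

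Several of the largest falls were of genes that primary cells expressed clearly and that stood below 1 in secondary cells. LAPTM5, a lysosomal membrane protein best known from blood cells, had 0.61, 0.52 and 0.54 in secondary libraries, against 31.3, 26.3 and 32.9 in primary libraries. The log2 difference of -4.32 ± 0.093 was the largest fall among named genes (adjusted p = 6.37e-20), and the lowest primary library lay far above the highest secondary one. GMFG, which remodels branched actin and is also best known from blood cells, had 0.22, 0 and 0.13 in secondary libraries, against 17.2, 17.3 and 14.5 in primary libraries, a log2 difference of -3.96 ± 0.17, or -6.4 with a pseudocount of 0.1. Of the 18 immune markers 15 stayed under 1 in all 6 libraries. CSF1R, the receptor of macrophage growth factor, was the only called marker among the 4 immune markers tested, with 0.44, 0.66 and 0.54 in secondary libraries, against 1.81, 2.34 and 2.26 in primary libraries, and fell by 1.02 ± 0.098.

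Genes of retinoid metabolism stood among the largest changes in both directions. ALDH1A1, an enzyme that makes retinoic acid, had 2.58, 2.66 and 3.01 in secondary libraries, against 46.9, 48.4 and 49.8 in primary libraries, a log2 difference of -3.72 ± 0.094 (adjusted p = 1.29e-18). ALDH1A3, which catalyses the same step, ran the other way, with 16.4, 15.4 and 16.1 in secondary libraries, against 3.45, 3.15 and 4.08 in primary libraries, a rise of 1.90 ± 0.084. In neither gene did the groups overlap. RARRES1, named for its response to retinoic acid receptors, had 1.38, 1.31 and 1.54 in secondary libraries, against 29.4, 29.1 and 30.3 in primary libraries and fell by 3.67 ± 0.097. Of the 16 tested genes of retinoic acid synthesis, binding and reception 5 rose and 7 fell, with a median of 0.04. DHRS3, which reduces retinal back to retinol, fell by 1.17 ± 0.077, CRABP1, a binding protein of retinoic acid, by 1.14 ± 0.20, RARRES2 by 0.77 ± 0.093 and the receptor RARB by 0.70 ± 0.081. CRABP2, the other binding protein, rose by 0.43 ± 0.065, RBP4, which carries retinol, by 0.38, and the retinal reductase RDH11 by 0.56. RARA fell by 0.26 ± 0.081, a call lost without primary library 3 (adjusted p = 0.0845 in limma), and RARG, RXRB, RDH10 and STRA6 were not called, at 0.099, -0.0098, 0.12 and 0.12.

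SOX2, a transcription factor that in mice marks the papilla of guard, awl and auchene hairs and not that of the fine zigzag hairs, was nearly confined to primary cells among these 6 libraries. It had 0.42, 0.28 and 0.070 in secondary libraries, against 13.9, 10.6 and 13.1 in primary libraries. The log2 difference was -3.43 ± 0.14 (adjusted p = 4.05e-15), or -5.28 with a pseudocount of 0.1, and the groups did not overlap. Of 38 tested transcription factors of dermis and papilla 7 rose and 17 fell, with a median of -0.14. FOXD1, a forkhead factor of stromal cells, had 0.33, 0.32 and 0.31 in secondary libraries, against 6.61, 6.22 and 6.8 in primary libraries and fell by 2.51 ± 0.075. PRDM1, a repressor found in the early papilla of mice, had 1.61, 1.54 and 1.46 in secondary libraries, against 8.8, 8.48 and 8.87 in primary libraries and fell by 1.94 ± 0.069. For both, every primary library lay above every secondary one. EBF1 fell by 1.81 ± 0.10 to 4.3 ± 0.0643 in secondary cells, against 17.6 ± 0.432 in primary cells, and TBX3 by 1.59 ± 0.052 to 11.3 ± 0.315, against 36 ± 1.75. The broad dermal factors PRRX1, TBX15 and TWIST2, chosen here after their values were seen, were not called, at -0.064 ± 0.053, 0.077 ± 0.044 and 0.094 ± 0.057. MAB21L2, a developmental gene outside that list, had 0.080, 0.050 and 0.21 in secondary libraries, against 9.83, 10.9 and 10.6 in primary libraries and fell by 3.36 ± 0.093.

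Papilla and sheath markers moved gene by gene. ALPL, the alkaline phosphatase that is the classical papilla stain, had 0.21, 0.22 and 0.17 in secondary libraries, against 1.74, 2.44 and 1.92 in primary libraries and fell by 1.33 ± 0.09. The groups lay apart, at low levels. LAMA4, a laminin chain, fell by 0.54 ± 0.036 to 164 ± 2.05 in secondary cells, against 239.9 ± 2.78 in primary cells. The Wnt inhibitor WIF1, the transcription factor TBX18, the lysophosphatidic acid producer ENPP2 and the fibre protein MFAP4 were not called, at -0.30 ± 0.13, -0.16 ± 0.071, -0.03 ± 0.044 and -0.10 ± 0.06, WIF1 and TBX18 passing the threshold under some alternatives. The other called papilla markers are described with their pathways. Among sheath markers ITGA8, an integrin chain, rose by 0.34 ± 0.043, the transcription factor MEF2C and the integrin chain ITGA5 fell by 0.84 ± 0.073 and 0.26 ± 0.054, and smooth muscle myosin MYH11 was not called, at 0.047 ± 0.077.

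**Figure D2:**
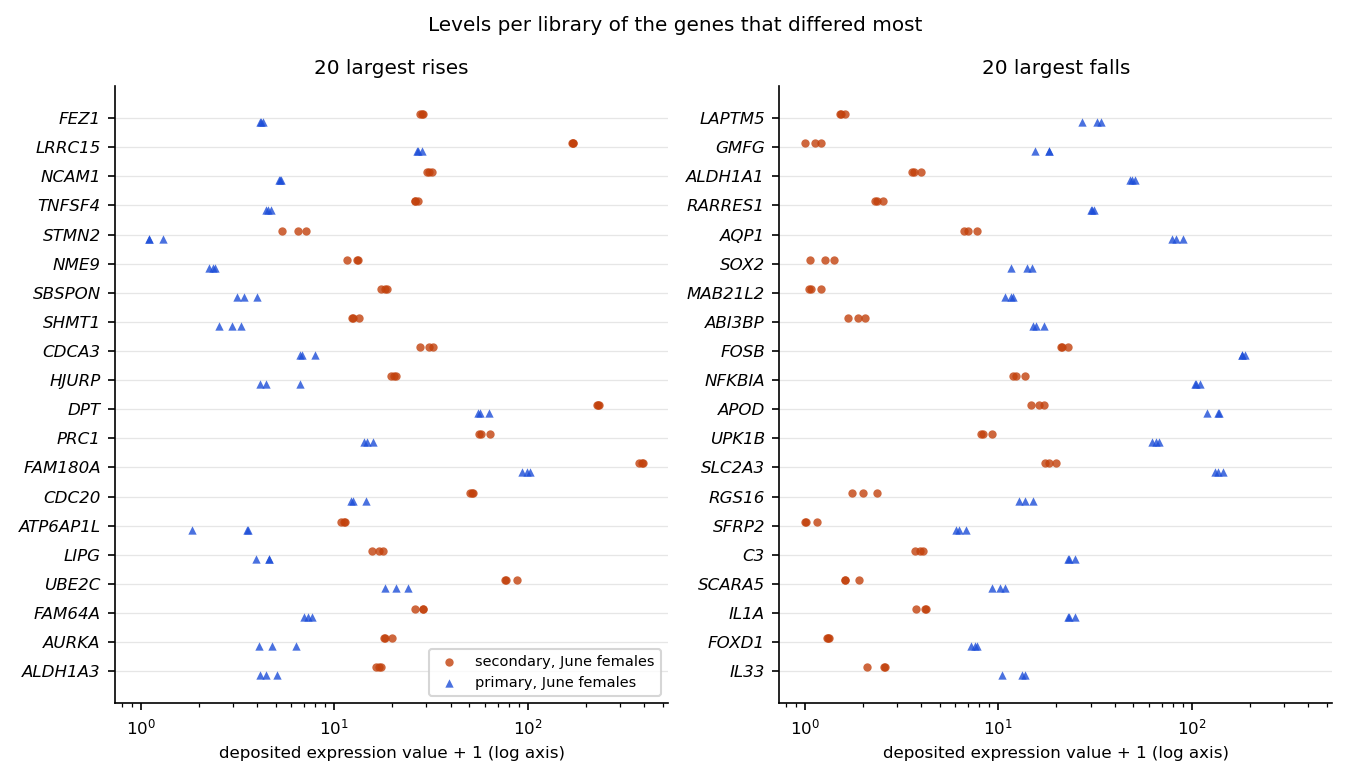
Deposited expression value plus 1 (log axis) of the 20 genes with the largest rise (left) and the 20 with the largest fall (right) in each June female library: circles are secondary, triangles primary libraries. No gene's groups overlap, which the choice of these genes required, and the falls span a wider range than the rises, with LAPTM5 at -4.32 and FEZ1 at 2.75 on the log2 scale.

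The largest rises joined genes of the cell surface, the matrix and cell division. FEZ1, an adaptor for transport along microtubules that is best known from neurons, had 27.7, 26.8 and 27.4 in secondary libraries, against 3.18, 3.28 and 3.14 in primary libraries, a rise of 2.75 ± 0.083 (adjusted p = 2.14e-17). LRRC15, a membrane protein found on activated fibroblasts, had 171, 168 and 171 in secondary libraries, against 26, 25.6 and 27.4 in primary libraries and rose by 2.65 ± 0.049. NCAM1, an adhesion molecule of neurons and of the papilla, had 29.2, 31.1 and 29.9 in secondary libraries, against 4.19, 4.3 and 4.26 in primary libraries and rose by 2.56 ± 0.07. In each of the 3 the libraries of a group lay close together and far from the other group. TNFSF4, the ligand of a receptor on T cells, had 25.1, 26.1 and 25.2 in secondary libraries, against 3.46, 3.74 and 3.53 in primary libraries, a rise of 2.53 ± 0.053. STMN2, which loosens microtubules and stood among the sheath markers, had 5.47, 6.19 and 4.37 in secondary libraries, against 0.11, 0.31 and 0.11 in primary libraries. Its level in primary cells was close to 0 and the groups did not overlap. SBSPON, an extracellular protein, rose by 2.37 ± 0.11 to 17.2 ± 0.624 in secondary cells, against 2.52 ± 0.424 in primary cells, and FAM180A by 1.98 ± 0.073 to 385 ± 8.76, against 97.3 ± 4.67. LIPG, an extracellular lipase, had 15.9 ± 1.11 in secondary and 3.4 ± 0.373 in primary cells, NME9 11.7 ± 0.906 and 1.36 ± 0.0819, and ATP6AP1L 10.2 ± 0.297 and 1.99 ± 0.99. Over the 20 largest rises adjusted p ran from 1.18e-20 to 5.88e-10 and over the 20 largest falls from 1.58e-20 to 1.95e-12. The abundant genes with no symbol, LOC102181826 and LOC102188072, rose by 2.20 ± 0.073 and 2.08 ± 0.12, to 164 ± 7.83 and 117 ± 9.96 in secondary cells, against 35 ± 2.55 and 27 ± 3.67 in primary cells.

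Genes of cell division were higher in secondary cells throughout. All 54 tested genes of mitosis and the G2/M transition rose, 50 of them at least 2-fold, and their median log2 difference was 1.52. Their values summed to 1639 to 1697 in secondary and 608 to 623 in primary libraries (exact permutation test p = 0.1). PRC1, which bundles the microtubules of the dividing spindle, had 56.2, 62.5 and 54.8 in secondary libraries, against 13.2, 14.8 and 13.8 in primary libraries and rose by 1.98 ± 0.058. CDC20, which starts anaphase by directing the destruction of cyclin B and securin, had 49.6, 50.5 and 51.1 in secondary libraries, against 11.6, 11.3 and 13.5 in primary libraries and rose by 1.97 ± 0.064. The lowest secondary library of each was more than 3 times the highest primary one. CCNB1, the cyclin of mitotic entry, had 67.4, 62.7 and 63.3 in secondary libraries, against 17.2, 19.5 and 19.2 in primary libraries, and its kinase CDK1 rose by 1.56 ± 0.061. CDCA3, KIF20A and TPX2, which act in mitotic entry, cell cleavage and spindle assembly, rose by 2.09, 1.76 and 1.5, and HJURP, which loads the centromere histone, by 2.04 ± 0.12. The smallest member difference was that of BUB3, at 0.17 ± 0.037 (adjusted p = 0.000682).

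DNA replication followed with smaller differences. Of 51 tested genes of replication and the G1/S transition 47 rose and 2 fell, 10 of the rises being at least 2-fold, with a median of 0.72. RRM2, the subunit of ribonucleotide reductase that limits its activity in S phase, had 104, 108 and 105 in secondary libraries, against 35.3, 34.6 and 32.9 in primary libraries and rose by 1.60 ± 0.066. TYMS, which makes thymidylate, had 94, 89 and 93 in secondary libraries, against 38.2, 38.4 and 41.5 in primary libraries, a rise of 1.20 ± 0.052. Neither gene's groups overlapped, and RRM1 and UHRF1, which helps to maintain DNA methylation on the new strand, rose by 1.03 and 1.26. CCND2, a G1 cyclin, was the larger of the 2 falls: it had 86.6, 88.5 and 91.1 in secondary libraries, against 187, 199 and 199.8 in primary libraries and fell by 1.13 ± 0.038. Of the 25 tested genes in the list of cell cycle inhibitors 6 rose and 14 fell, with a median of -0.16, and the number of falls was 9 without primary library 2 and 9 without secondary library 3. CDKN1A, the inhibitor p21, fell by 0.28 ± 0.046 to 224 ± 5.97 in secondary cells, against 273 ± 6.45 in primary cells, and the antiproliferative BTG2 by 0.70 ± 0.047. LMNB1, a nuclear lamina protein lost in senescent cells, rose by 1.17 ± 0.059 to 34.6 ± 0.42, against 14.8 ± 0.648 in primary cells, and CDKN2C by 0.54.

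**Figure D3:**
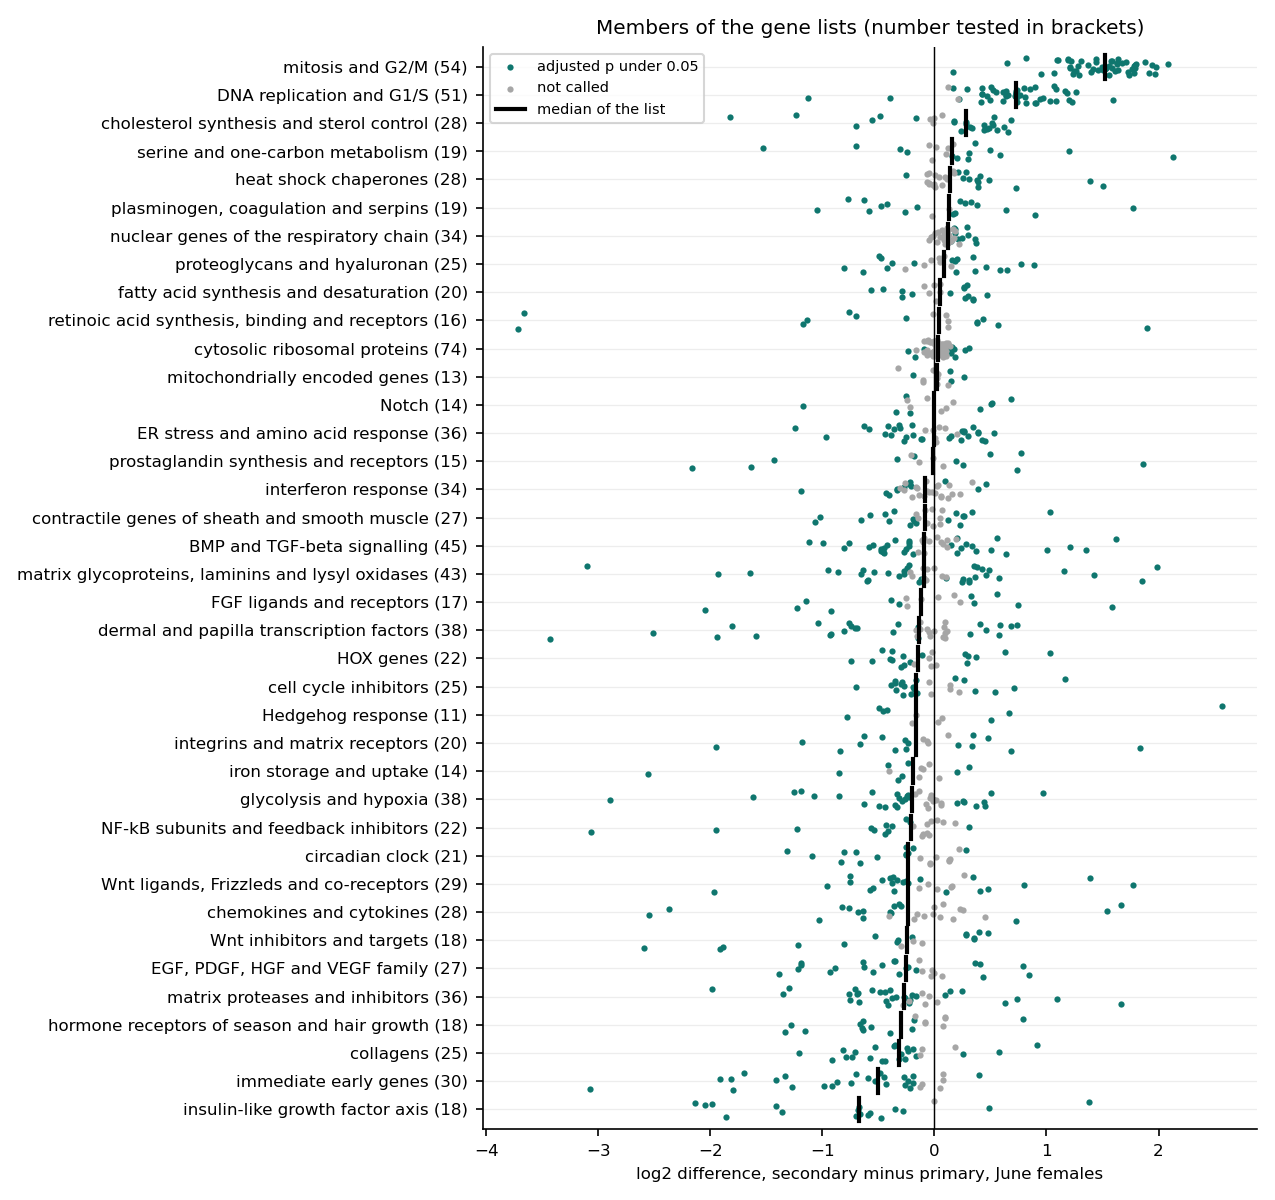
Log2 difference, secondary minus primary June females, of every tested member of 38 gene lists (rows, members tested in brackets, sorted by median): green points passed an adjusted p of 0.05, grey points did not, and black bars are list medians. Mitosis stands at a median of 1.52 with no member below 0, while the insulin-like growth factor and immediate early lists have medians of -0.67 and -0.50.

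Immediate early genes, which respond to stimuli within minutes, were lower in secondary cells. Of 30 tested members 24 fell, 8 of them at least 2-fold, and 1, MYC, rose, by 0.40 ± 0.055. The list median was -0.50 and the summed values were 2973 to 3021 in secondary and 5105 to 5292 in primary libraries (exact permutation p = 0.1, the smallest possible). FOSB, a subunit of the transcription factor AP-1, had 20.2, 22.1 and 20.3 in secondary libraries, against 180.1, 181 and 188 in primary libraries. Its log2 difference of -3.07 ± 0.059 was larger in size than that of FOS, which had 114, 109.6 and 106 in secondary libraries, against 397, 387 and 374 in primary libraries and differed by -1.80 ± 0.042. The orphan receptors NR4A2 and NR4A3 fell by 1.82 ± 0.061 and 1.92 ± 0.078, and ZFP36, which degrades cytokine messages, by 1.34 ± 0.053. JUN, EGR3, FOSL1, KLF10 and ARC were the 5 members not called.

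In the list of NF-kB, the transcription factor of inflammatory signalling, and its feedback inhibitors 54.5% of members were called, near the 49.3% of all genes, and the larger differences were falls. NFKBIA, which holds NF-kB in the cytoplasm, had 11.4, 12.8 and 11 in secondary libraries, against 103, 104 and 109 in primary libraries, a log2 difference of -3.07 ± 0.064 (adjusted p = 5.61e-20). NFKBIZ, a nuclear regulator of the same family, had 17.5, 17.6 and 17.4 in secondary libraries, against 68.6, 74.3 and 69 in primary libraries and fell by 1.95 ± 0.063. For both genes the lowest primary library was above 3 times the highest secondary one. Of the 22 tested members of the NF-kB list 11 fell and 1 rose, with a median of -0.21, the rises numbering 2 without secondary library 2, and TNFAIP2, NFKBIE and TNIP1 fell by 1.23, 0.54 and 0.38. The subunits RELA, RELB, NFKB1 and NFKB2, named after their values were seen, were not called, at -0.11, -0.051, -0.10 and -0.068, and REL fell by 0.44 ± 0.11.

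Of 28 tested chemokines, cytokines and their receptors 13 fell and 3 rose, with a median of -0.24. IL1A, the alarm cytokine interleukin 1 alpha, had 3.2, 3.25 and 2.77 in secondary libraries, against 24.1, 21.9 and 22.3 in primary libraries and fell by 2.54 ± 0.11. IL33, another nuclear alarm cytokine, had 1.11, 1.56 and 1.59 in secondary libraries, against 12.8, 12.3 and 9.51 in primary libraries, a log2 difference of -2.37 ± 0.14. The groups did not overlap in either. OSMR, a receptor of oncostatin M, fell by 0.82 ± 0.053. CMKLR1, the receptor of the chemoattractant chemerin, rose by 1.66 ± 0.076 to 95.3 ± 2.18 in secondary cells, against 29.4 ± 0.935 in primary cells, while RARRES2, which encodes chemerin, was lower as given above. IL7 rose by 1.54 ± 0.13 at a low level, with 2.82, 2.1 and 2.4 in secondary libraries, against 0.20, 0.050 and 0.30 in primary libraries. C3, the central complement component, which stood in no list but among the 20 largest falls, had 2.95, 3.08 and 2.73 in secondary libraries, against 22.1, 23.8 and 21.9 in primary libraries and fell by 2.59 ± 0.076.

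In the prostaglandin list 6 of 15 tested members rose and 5 fell, with a median of -0.01. PTGS2, the inducible cyclooxygenase, had 8.76, 9.08 and 8.6 in secondary libraries, against 44.1, 45.9 and 39.2 in primary libraries and fell by 2.16 ± 0.06. PTGES, the synthase of prostaglandin E2 that acts after it, had 59.6, 59.4 and 59.3 in secondary libraries, against 190.1, 182 and 188 in primary libraries, a log2 difference of -1.64 ± 0.052. PTGFR, the receptor of prostaglandin F2 alpha, fell by 1.43 ± 0.095, and PTGS1, the constitutive cyclooxygenase, rose by 0.74 ± 0.11. PTGIS, the prostacyclin synthase, had 12.8, 12.2 and 13.1 in secondary libraries, against 2.97, 2.65 and 2.71 in primary libraries and rose by 1.86 ± 0.077, and AKR1B1, which can form prostaglandin F2 alpha, by 0.77 ± 0.062. None of these genes had overlapping groups.

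Secreted inhibitors and receptors of the Wnt pathway, the main growth signal of the papilla, differed in both directions. SFRP2, which binds Wnt ligands outside the cell, had 0.16, 0 and 0.020 in secondary libraries, against 5.86, 5.06 and 5.28 in primary libraries and fell by 2.60 ± 0.10. SFRP1, of the same family, had 8.05, 8.45 and 7.72 in secondary libraries, against 33, 34.5 and 31.9 in primary libraries and differed by -1.91 ± 0.057. SFRP4 fell by 1.89 ± 0.14, DKK3, a divergent member of the Dickkopf family, by 1.22 ± 0.045 and the Dickkopf receptor KREMEN1 by 0.81 ± 0.052. Over the list of inhibitors and targets 9 of 18 tested members fell and 6 rose, the rises including the target factor LEF1 at 0.35 ± 0.081. Among 29 ligands, Frizzled receptors and co-receptors 16 fell and 7 rose, with a median of -0.24. FZD5 had 12.2, 12.7 and 12.2 in secondary libraries, against 3.2, 2.98 and 2.62 in primary libraries, a rise of 1.77 ± 0.063, while FZD4 and FZD1 fell by 0.96 and 0.55. The ligand WNT2 had 0.92, 1.09 and 0.78 in secondary libraries, against 6.25, 6.74 and 6.63 in primary libraries and fell by 1.97 ± 0.099. RSPO1, an R-spondin that amplifies Wnt signals, rose by 1.39 ± 0.098 to 13.2 ± 0.455 in secondary cells, against 4.42 ± 0.50 in primary cells, and its relative RSPO3 fell by 0.37 ± 0.04.

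In the BMP and TGF-beta list 19 of 45 tested members fell and 14 rose, with a median of -0.09. GREM1, a secreted antagonist of BMPs, had 889, 895 and 886 in secondary libraries, against 346, 353 and 346 in primary libraries and rose by 1.35 ± 0.041. ID1, a target gene of BMP signalling, had 206, 188 and 177 in secondary libraries, against 61.8, 60.5 and 61.5 in primary libraries, a rise of 1.62 ± 0.062. Both were higher in every secondary library than in any primary one. The ligand GDF6 rose by 1.21 ± 0.059 and the antagonist NOG by 0.50 ± 0.14. LTBP1, which stores latent TGF-beta in the matrix, fell by 0.99 ± 0.035, and INHBA, the activin A subunit, by 0.81 ± 0.053 to 103 ± 3.71 in secondary cells, against 181 ± 8.09 in primary cells. BMP4 had 102 ± 3.92 in secondary and 88.8 ± 4.34 in primary cells, a rise of 0.20 ± 0.081 whose adjusted p of 0.0468 passed 0.05 in limma and missed it under 7 of the alternatives tried, at up to 0.152 without primary library 1.

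FGF7, the keratinocyte growth factor that the papilla sends to the epithelium, had 20.1, 22.2 and 20.4 in secondary libraries, against 94.1, 95.6 and 80.2 in primary libraries and fell by 2.05 ± 0.087 (adjusted p = 6.94e-15). FGF10, which acts on the same receptor, had 3.13, 3.4 and 3.16 in secondary libraries, against 9.07, 9.37 and 8.25 in primary libraries, a log2 difference of -1.23 ± 0.084. FGF2 and the feedback inhibitor SPRY1 fell by 0.92 and 1.14. FGF13, a family member that stays in the cell, rose by 1.58 ± 0.10, with 2.39, 2.38 and 1.99 in secondary libraries, against 0.080, 0.090 and 0.080 in primary libraries. Of the 17 tested FGF genes 5 rose and 6 fell. In the insulin-like growth factor list 15 of 18 tested members fell and 2 rose, with a median of -0.67. IGFBP7, a binding protein, had 433, 432 and 428 in secondary libraries, against 1162, 1114 and 1185 in primary libraries and fell by 1.42 ± 0.044. IGF2BP2, which binds the messenger RNA of IGF2 and others, had 11.6, 11.5 and 11.9 in secondary libraries, against 51.5, 52.1 and 50.6 in primary libraries, a log2 difference of -2.05 ± 0.055. The protease PAPPA, which frees insulin-like growth factors from a binding protein, fell by 1.99 ± 0.089, its inhibitor STC1 by 2.14 ± 0.11, and IGF1 itself by 0.48 ± 0.095. STC2, the other stanniocalcin, rose by 1.38 ± 0.066 to 20.5 ± 1.38 in secondary cells, against 7.23 ± 0.213 in primary cells.

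Of 27 tested genes of the EGF, PDGF, HGF and VEGF families 16 fell and 5 rose, with a median of -0.25. VEGFA, the main growth factor of blood vessels, had 219, 222 and 221 in secondary libraries, against 512, 511 and 498 in primary libraries and fell by 1.20 ± 0.038. EGFR, the receptor of epidermal growth factor, fell by 1.39 ± 0.068, its inhibitor ERRFI1 by 0.94 ± 0.042, and PDGFRA by 0.88 ± 0.052. In the Notch list 4 of 14 tested members rose and 4 fell, with a median that rounds to 0. The target HES1 had 52.9, 55.5 and 56 in secondary libraries, against 123, 126 and 124 in primary libraries, a log2 difference of -1.17 ± 0.06, while the ligand JAG1 and the sugar transferase LFNG rose by 0.41 and 0.68. The hedgehog list had 3 rises and 4 falls among 11 tested members. Its effector GLI3 fell by 0.78 ± 0.064, and GAS1, a membrane protein that binds the ligand, rose by 0.66 ± 0.054, while NCAM1, described above, was its largest rise.

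Receptors of hormones that act on hair and season were mostly lower in secondary cells, with 11 falls and 1 rise among 18 tested and a median of -0.30. ESR1, the oestrogen receptor alpha, had 0.49, 0.39 and 0.39 in secondary libraries, against 2.39, 2.6 and 2.77 in primary libraries and fell by 1.33 ± 0.098. PGR, the progesterone receptor, had 3.79, 3.98 and 3.69 in secondary libraries, against 10.3, 10.2 and 8.76 in primary libraries, a log2 difference of -1.15 ± 0.094. The groups of both genes lay apart. LEPR, THRB and NR3C1, the receptors of leptin, thyroid hormone and glucocorticoids, fell by 1.28, 0.65 and 0.64. Of 21 tested circadian clock genes 12 fell and 1 rose, or 2 without primary library 3, with a median of -0.24. BHLHE40, a repressor driven by the clock and by hypoxia, had 103, 102 and 104 in secondary libraries, against 250.1, 254 and 272 in primary libraries and fell by 1.32 ± 0.041. PER1 and NFIL3 fell by 0.84 and 0.80, and the core genes CLOCK and ARNTL, named after their values were seen, were not called, at -0.039 ± 0.082 and -0.037 ± 0.078. Time of day of sampling is not given in the labels. HOX genes, which hold the position of a cell along the body, gave 11 falls and 6 rises among 22 tested, with a median of -0.15, and 7 falls without secondary library 1. HOXC10, with 2.82, 3.04 and 2.16 in secondary libraries, against 0.80, 0.78 and 0.77 in primary libraries, rose by 1.03 ± 0.11, and HOXB6, with 2.53, 2.28 and 2.05 in secondary libraries, against 4.63, 4.64 and 4.23 in primary libraries, fell by 0.74 ± 0.077.

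Collagen genes were mostly lower in secondary cells. Of 25 tested collagen genes 19 fell and 3 rose, with a median of -0.32. COL3A1, the chain of type III collagen, fell by 0.92 ± 0.033 to 2162 ± 53 in secondary cells, against 4082 ± 37.6 in primary cells. COL5A2, COL11A1 and COL14A1 fell by 0.73, 0.71 and 0.82, and COL8A1 by 1.21 ± 0.083. The list summed to 22853 to 24513 in secondary and 29979 to 32567 in primary libraries. Among matrix glycoproteins, laminins and lysyl oxidases the directions were mixed, with 16 rises and 18 falls of 43 tested. DPT, a small matrix protein that binds decorin, had 232, 229 and 227 in secondary libraries, against 54.2, 55.4 and 62.1 in primary libraries and rose by 1.99 ± 0.078. TNN, tenascin N, had 14.4, 14.6 and 14.6 in secondary libraries, against 3.59, 3.02 and 3.33 in primary libraries, a rise of 1.85 ± 0.093. ABI3BP, a matrix protein that slows proliferation, had 1.06, 0.68 and 0.89 in secondary libraries, against 14.6, 16.3 and 14.2 in primary libraries and fell by 3.10 ± 0.086. The laminin chains LAMA2 and LAMB1 fell by 1.65 and 0.86.

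The list of proteoglycans and hyaluronan genes held 11 rises and 7 falls of 25. LUM and FMOD, which bind collagen fibrils, rose by 0.65 ± 0.062 and 0.59 ± 0.039, while DCN, which also binds them, fell by 0.64 ± 0.043 to 545 ± 16.1 in secondary cells, against 848 ± 20.5 in primary cells. VCAN, the papilla proteoglycan versican, rose by 0.19 ± 0.052. Of 36 matrix proteases and inhibitors 23 fell and 7 rose, with a median of -0.28. CTSK, the collagen-degrading cathepsin K, had 234, 234 and 227 in secondary libraries, against 553, 569 and 595 in primary libraries and fell by 1.30 ± 0.037. ADAMTS5 and MMP14 fell by 1.36 and 0.67, and MMP28 rose by 1.09 ± 0.079. Among 19 plasminogen, coagulation and serpin genes 9 rose and 8 fell. THBD, the thrombin receptor thrombomodulin, had 64.1, 61.7 and 63.8 in secondary libraries, against 16.8, 18.3 and 18.3 in primary libraries and rose by 1.77 ± 0.06, and PLAU, the urokinase, by 0.90 ± 0.051. SERPING1, the inhibitor of complement C1, fell by 1.05 ± 0.067.

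Integrins differed in both directions, with 6 rises and 10 falls of 20. ITGA6, a laminin receptor chain, had 4.39, 4.64 and 4.33 in secondary libraries, against 0.62, 0.45 and 0.51 in primary libraries and rose by 1.84 ± 0.11. ITGA7, another laminin receptor chain, ran the other way with 0.25, 0.36 and 0.34 in secondary libraries, against 3.63, 4.02 and 4.61 in primary libraries, a log2 difference of -1.95 ± 0.093. ITGB3 and ITGA1 fell by 1.18 and 0.84, ITGA3 rose by 0.69, and ITGB1, the common partner, named after its value was seen, was not called, at -0.062 ± 0.037. Of 27 contractile genes 11 fell and 7 rose, with a median of -0.09: MYLK, the myosin light chain kinase, fell by 1.07 ± 0.056 and TPM1 by 0.66 ± 0.035, while ACTA2, smooth muscle actin, was not called, at -0.011 ± 0.066, and TAGLN rose by 0.23 ± 0.057. APOD, a lipid carrier of papilla and dermis, had 16.1, 15.2 and 13.8 in secondary libraries, against 136, 137 and 119 in primary libraries and fell by 3.03 ± 0.065. AQP1, a water channel, had 5.63, 6.78 and 5.97 in secondary libraries, against 81.5, 78 and 89.5 in primary libraries, a log2 difference of -3.56 ± 0.079. UPK1B, a tetraspanin, fell by 2.93 ± 0.077 to 7.58 ± 0.587 in secondary cells, against 64.3 ± 2.84 in primary cells, and RGS16, which shuts off G protein signals, by 2.77 ± 0.10 to 1.05 ± 0.317, against 12.9 ± 1.18.

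Metabolic lists held changes in both directions. SLC2A3, a glucose transporter, had 16.5, 17.3 and 18.8 in secondary libraries, against 136, 143 and 131 in primary libraries and fell by 2.89 ± 0.09. Of 38 tested genes of glycolysis and hypoxia 19 fell and 8 rose, with a median of -0.20, EPAS1, the hypoxia factor HIF-2 alpha, falling by 1.08 ± 0.048 and CA12 rising by 0.97 ± 0.054. Cholesterol synthesis ran the other way, with 18 rises and 6 falls of 28 and a median of 0.28. HMGCS1 and EBP, enzymes of the pathway, rose by 0.66 ± 0.053 and 0.51 ± 0.056, while ABCA1, which exports cholesterol, had 1.66, 1.42 and 1.56 in secondary libraries, against 8.6, 8.59 and 7.03 in primary libraries and fell by 1.83 ± 0.081, and MYLIP, which degrades the LDL receptor, fell by 1.23 ± 0.059. Fatty acid genes gave 9 rises and 5 falls of 20, with ACLY at 0.34 ± 0.043 and SREBF1 at -0.57 ± 0.11. SHMT1, a cytosolic enzyme that moves one-carbon units from serine to folate, had 12.5, 11.4 and 11.5 in secondary libraries, against 2.32, 1.55 and 1.97 in primary libraries and rose by 2.12 ± 0.12. Its list had 9 rises and 4 falls of 19, GLDC of the glycine cleavage system falling by 1.53 ± 0.089.

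Genes of endoplasmic reticulum stress and the amino acid response gave 13 rises and 16 falls of 36, with a median of -0.01. The chaperones HSP90B1 and PDIA4 rose by 0.45 and 0.39, and DDIT4 and VLDLR fell by 0.97 and 1.24. Of 28 heat shock chaperones 12 rose and 1 fell, with a median of 0.13, HSPB7 rising by 1.38 ± 0.094 and HSPA6 by 1.51 ± 0.10 to 3.26 ± 0.393 in secondary cells, against 0.50 ± 0.164 in primary cells. In the iron list 6 of 14 fell and 2 rose. SCARA5, a receptor that can take up ferritin, had 0.62, 0.62 and 0.92 in secondary libraries, against 8.27, 9.81 and 9.28 in primary libraries and fell by 2.56 ± 0.094, and SLC40A1, the iron exporter ferroportin, fell by 0.85 ± 0.058.

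Ribosomal, respiratory and interferon lists held fewer called members than the 49.3% of all genes. Of 74 tested cytosolic ribosomal protein genes 11 rose and 3 fell, 18.9% of them, with a median of 0.04, and the rises numbered 5 without secondary library 1 and 7 without secondary library 2. The falls numbered 1 without primary library 3 or secondary library 3 and 1 with a replicate block. Nuclear genes of the respiratory chain gave 10 rises among 34, the other 24 not being called, with a median of 0.12, and mitochondrially encoded genes 3 rises and 1 fall of 13. Interferon response genes gave 3 rises and 9 falls of 34, 35.3%, with a median of -0.08. IRF1, a transcription factor that interferon induces, was the exception in size, falling by 1.20 ± 0.075 to 8.43 ± 0.207 in secondary cells, against 20.6 ± 2.01 in primary cells, and IFI6 and IFIH1 fell by 0.41 and 0.43.

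The same contrast in June males and in October females, which share no library with the June females, gave the values against which each gene can be read. Of all tested genes 30.7% rose and 28.9% fell in secondary cells of June males, and 18.3% rose and 17.2% fell in those of October females. Of the 6435 genes called in June females 56.1% were called the same way in June males and 28.5% in October females, and log2 differences over all tested genes, which are not independent replicates, correlated at r = 0.459 and 0.215. Of the 306 genes at least 2-fold higher in secondary cells of June females 255 (83.3%) were called higher in secondary cells of June males, 26 were called lower and 25 were not called. In October females 104 (34.0%) were called higher, 89 lower and 113 neither. Of the 251 genes at least 2-fold lower 151 (60.2%) were called lower in June males and 55 higher, and 131 (52.2%) were called lower in October females and 47 higher. The difference between the sexes itself was called at 5381 genes (41.2%), 2657 with a more positive and 2724 with a more negative follicle difference in females. After scaling all libraries to the same total these became 1774 and 3683, and the median over all genes then stood at -0.093. The difference between the months in females was called at 5252 genes (40.2%), 2549 more positive and 2703 more negative in June. Of the 306 and 251 genes, 172 (56.2%) and 212 (84.5%) had a called difference between the sexes, and 275 (89.9%) and 221 (88.0%) one between the months. These genes were chosen by their June female difference, which enters both terms, so shares above those of all genes were in part fixed by the choice. The labels do not say which animals or cultures each group came from. Sex and month therefore cannot be told apart from animal, culture or handling, nor month from the phase of the hair cycle.

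The direction of cell division genes differed between the months in females. The median of the 54 mitosis genes was 1.52 in June females, 1.68 in June males, where all 54 rose, and -0.33 in October females, where 39 fell and the other 15 were not called, and all 54 had a called difference between the months (limma, adjusted over all genes). For the 51 replication genes the medians were 0.72, 0.89 and -0.08. PRC1, at 1.98 in June females, stood at 2.16 in June males and -0.44 in October females. In October males, whose follicle difference was not tested, the means were higher in secondary than in primary cells, as in June. PRC1 averaged 28.9 and 21.5 there, and CDC20 26.7 and 18.2. The follicle difference of immediate early genes was not the same in the 3 comparisons. Their median of -0.50 in June females stood beside 0.02 in June males and 0.40 in October females. Of 30 members 29 had a called difference between the sexes, as 41.2% of all genes did, 28 of them more negative in females. FOSB, at -3.07 in June females, had -1.43 in June males and 1.87 in October females. The NF-kB list had medians of -0.21, 0.14 and 0.06 and the collagens of -0.32, -0.23 and 0.19 in the same order. The insulin-like growth factor list had -0.67, -0.73 and -0.14, with 15 falls in each of the June comparisons and 9 in October females. Keratinocyte markers also differed among the 3, with medians of -0.06, -0.45 and 1.24, and 19 of 20 rising in October females. In the 6 June female libraries 18 of all 24 keratinocyte markers stayed under 1. Some of the 20 tested thus passed the filter only through other groups, which favours differences between these comparisons. The part of these markers in the other differences was not tested. The plot of gene lists in 3 comparisons shows the members.

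**Figure D4:**
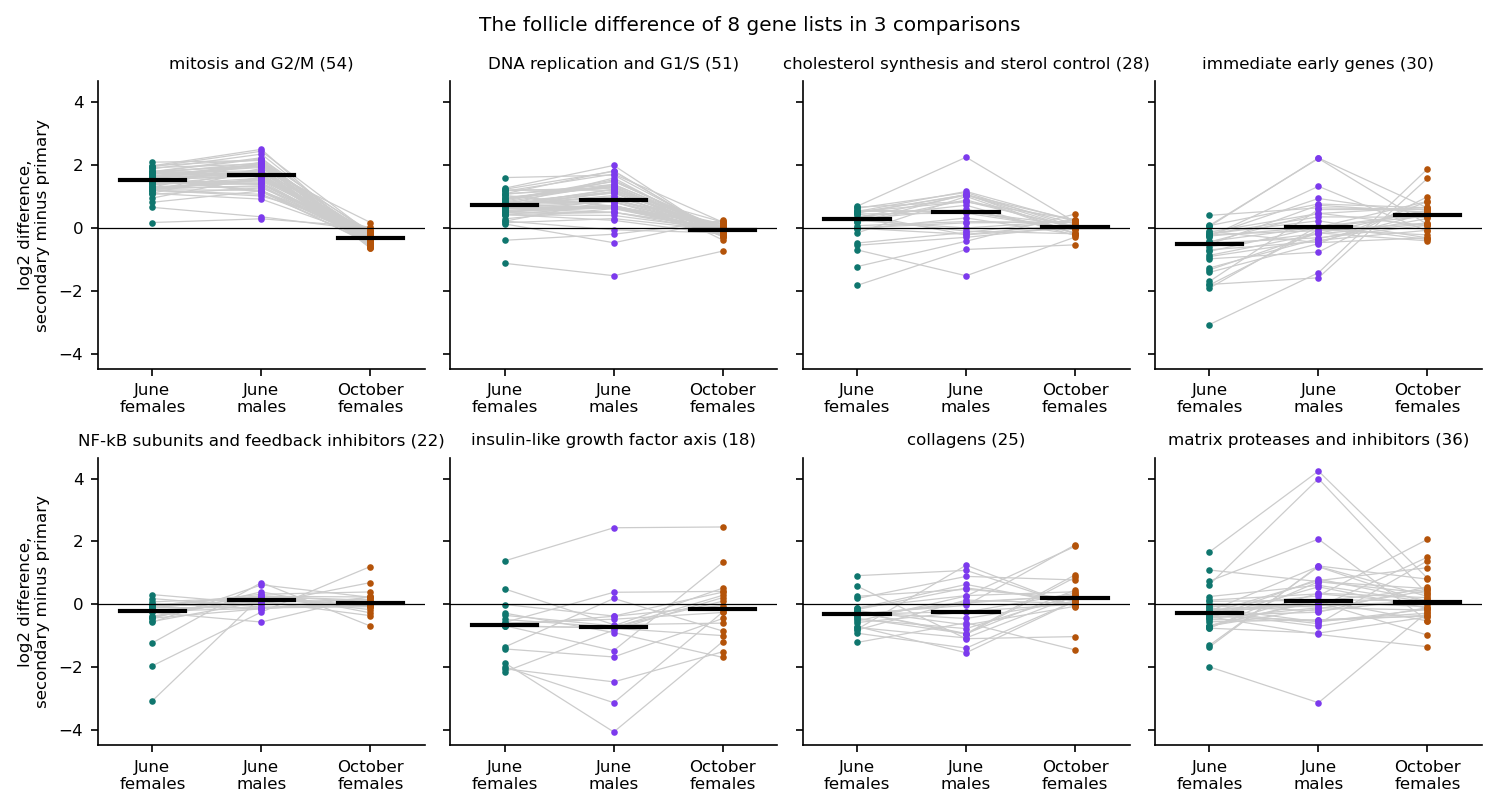
Log2 difference, secondary minus primary, of every tested member of 8 gene lists (members in brackets) in June females, June males and October females; grey lines join a gene's values and black bars are medians. Mitosis has medians of 1.52, 1.68 and -0.33 in the 3 comparisons, and immediate early genes of -0.50, 0.02 and 0.40.

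Among the 20 largest falls 11 were called lower in June males too, where 28.9% of all genes were, 6 were called higher and 3 were not called, and 17 had a called difference between the sexes. In October females, where 17.2% of all genes were called lower, 7 were called lower, 7 higher and 6 neither, and 19 had a called difference between the months. The counts of 17 and 19 were in part fixed by the choice of these genes for their June female difference. SOX2 and ALDH1A1 kept their direction: SOX2 stood at -3.43, -3.44 and -3.36 and ALDH1A1 at -3.72, -4.54 and -4.64 in June females, June males and October females. SOX2 was also high in secondary cells of October males, at 14.2, against 15.9 in their primary cells. GMFG, RARRES1, NFKBIA and IL1A, chosen for a large fall in June females, had a mean in primary June females at least 4 times that of any of the other 7 groups. NFKBIA had 105 there and between 10.4 and 15.8 elsewhere, and RARRES1 29.6 there and at most 2.72 elsewhere. LAPTM5 reached 8.2 in primary October females and at most 1.03 in the other 6 groups. AQP1 ran the other way in October females, with 49.8 in secondary and 16.9 in primary cells. APOD, at -3.03 in June females, was not called in June males, at -0.006, or October females, at -0.15. In October males, where the difference was not tested, APOD averaged 63.7 in secondary and 272 in primary cells.

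**Figure D5:**
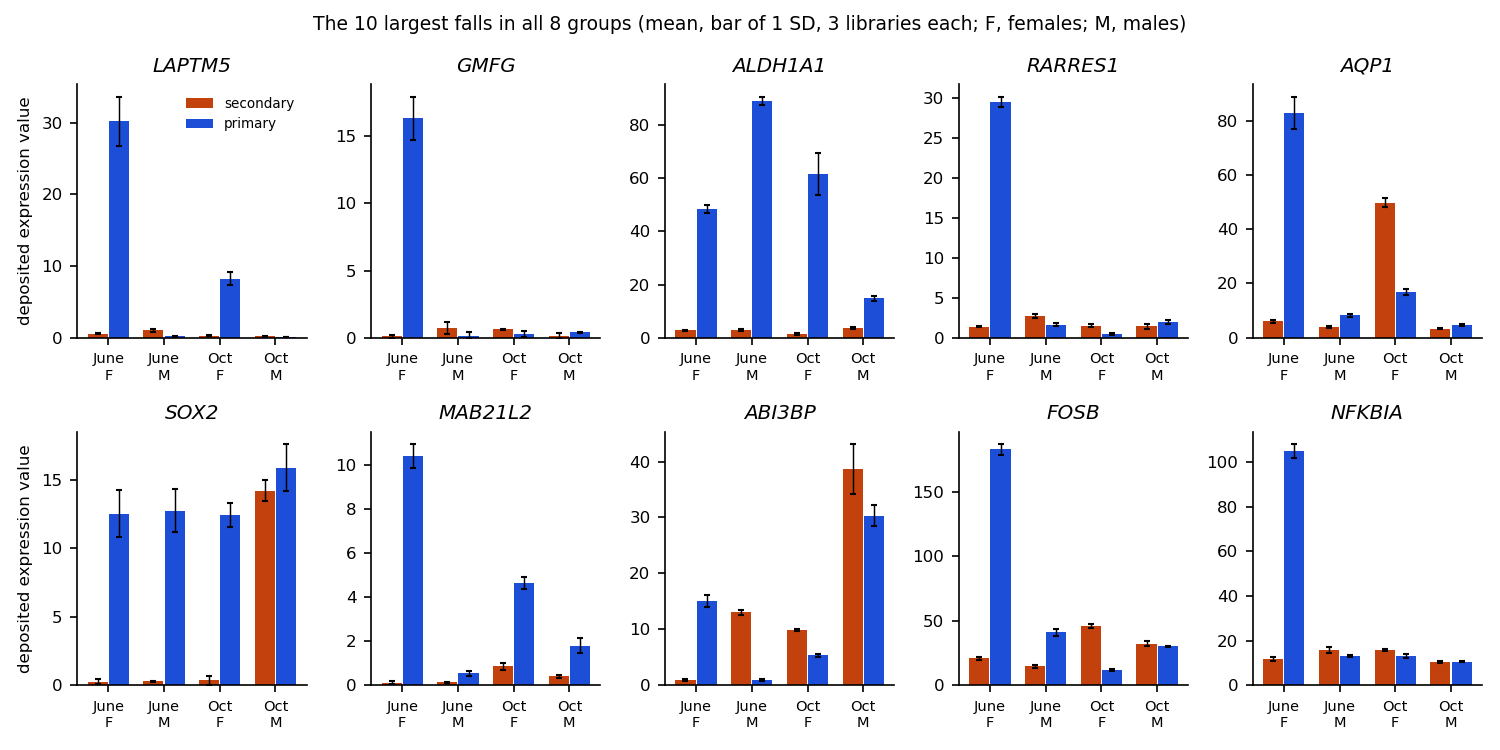
Deposited expression value (mean of 3 libraries, error bar 1 SD, axes from 0) of the 10 genes with the largest fall in June females, in secondary (left bar of a pair) and primary cells of all 8 groups. LAPTM5, GMFG, RARRES1, AQP1, MAB21L2, FOSB and NFKBIA are highest in primary June females, which the choice of these genes favours. SOX2 is at 12.4 or more in primary cells of every sex and month.

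Among the 20 largest rises, to be read against the shares of all genes called higher there (30.7% in June males and 18.3% in October females), 17 were called higher in June males, 2 lower and 1 not, and in October females 11 were called higher, 5 lower and 4 neither. The 5 lower in October females, CDCA3, HJURP, PRC1, CDC20 and FAM64A, are known for roles in cell division. FEZ1, LRRC15, DPT and ALDH1A3 rose in all 3 comparisons, LRRC15 by 2.65, 3.43 and 2.19 in June females, June males and October females, and DPT by 1.99, 2.28 and 2.90. In October males, where the difference was not tested, FEZ1 averaged 9.68 in secondary and 10.3 in primary cells. The means of LRRC15, DPT and ALDH1A3 were higher in secondary cells there too. SBSPON, at 2.37 in June females, was -4.16 in June males, where secondary cells had 3.35 and primary cells 76.6. TNFSF4 was not called in October females, at -0.084, against 2.53 in June females and 1.02 in June males.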

How the data were processed

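Total RNA was sequenced as paired reads, per the labels' protocols. The authors deposited 1 normalised signal value per gene and library, and the submitters' processing notes name kallisto 0.46.1 and sleuth 0.30.0. Genome build, filters and read depth are stated nowhere in the labels. The 24 libraries were grouped by their labels, and no coordinates are given. Of 20326 gene IDs 20294 matched RefSeq (ARS1.2), used for names only. How reads shared by close paralogs were assigned is not given.

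Genes reaching 1 in at least 3 of the 24 libraries were fitted on log2(value + 1) with 1 mean for each of 8 groups in limma 3.58.1 (R 4.3.3, robust estimation), and p-values were Benjamini-Hochberg adjusted. The fit of all 8 groups shares 1 estimate of spread. The fit was tested on simulated data with independent noise and differences placed in a small part of the genes. That setting is unlike these data and cannot show whether the replicates here are independent. Summed list values were compared by two-sided exact permutation tests. Alternatives were other filters, scalings and pseudocounts, a fold minimum of 2, the compared groups alone, no robust estimation, a replicate block and leaving out each library.

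Members and gene lists were chosen with earlier results of these data known. Named genes are the 20 largest rises and 20 largest falls among called genes with a symbol, a mean of at least 5 in a group and no overlap, up to 5 called members of each list by p with its largest, all papilla, sheath and retinoic acid members, the 10 largest differences each way by sex and by month, and the 8 largest among genes averaging at least 100. MYC, CSF1R, REL, PTGS1, BUB3, CDK1 and the uncalled PRRX1, TBX15, TWIST2, RELA, RELB, NFKB1, NFKB2, CLOCK, ARNTL and ITGB1 were named outside this rule after their values were seen, as were markers under 1 and uncalled immediate early genes. Some genes that this rule names are not reported here.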

Additional observations from a re-analysis of the deposited data

Results flagged for a closer look

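By the interaction terms of the limma fit, the follicle difference itself differed between the sexes in June at 5381 genes, 41.2% of those tested. Between June and October in females it differed at 5252 genes, 40.2% of those tested. Sex and month cannot be told apart from animal, culture or handling here. The genes given here are among those with the largest such differences, each called at an adjusted p under 0.05, as June females minus June males or June minus October on the log2 scale.

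Between the sexes, SBSPON stood highest at 6.53, with a follicle difference of 2.37 in June females and -4.16 in June males. Elastin (ELN) stood at 3.33, the stretch-responsive ANKRD1 at 3.24, PTHLH at 2.81 and SPARCL1 at 2.76. The keratins KRT5, KRT14 and KRT6A stood at 3.43, 3.02 and 2.81, and KRT5 averaged 0.55 and 1.78 in secondary and primary June females and 0.0233 and 18.9 in secondary and primary June males. The most negative were ABI3BP at -6.03, with -3.10 in June females and 2.92 in June males, and LAPTM5 at -5.1. GMFG stood at -4.53, RGS16 at -4.52, RARRES1 at -4.15, the protease PRSS35 at -4.12, the cytokine IL6 at -3.98, COLEC12 at -3.86, somatostatin (SST) at -3.6 and MGP, an inhibitor of calcification, at -3.53.

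Between the months, SORBS2 stood highest at 3.58, followed by the chemokine CCL17 at 3.14, KIAA1456 at 2.81, ARHGEF5 at 2.7, LY6G6C at 2.69 and TNFSF4 at 2.62. The cell division genes CDCA3, CDC20, HJURP and KIF2C stood at 2.55, 2.52, 2.5 and 2.42. AQP1 was the most negative at -5.07, with -3.56 in June and 1.51 in October females, and FOSB followed at -4.95. RARRES1 stood at -4.39, GMFG at -4.36, KRT5 at -4.08, SFRP2 at -3.94, ACTN2 at -3.94, ABI3BP at -3.87, PPP1R1A at -3.76 and MGP at -3.68. Keratinocyte markers moved with these comparisons. Of the 20 tested, 19 had a called difference between the months, as 40.2% of all genes did, all 19 more negative in June. Between the sexes 14 had one, as 41.2% of all genes did, 12 of them more positive in females. Some of the 20 passed the filter only through groups other than the June females, which favours such differences. In June females 18 of all 24 stayed under 1. The part of these markers in the other genes was not tested.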

How the results depend on the processing

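No called gene among those named by the rule changed sign under the filters, scalings, pseudocount, fits and left-out libraries tried, while RXRB, ACTA2, MYH11, PTHLH and SST, not called in June females, did under some. The balance of the difference between the sexes turned over with median-of-ratios factors, at 2763 more positive and 2626 more negative genes. The number of genes called stayed within 1.5 times throughout, except with a fold minimum of 2, which left 557 genes (306 higher and 251 lower) in June females, 742 (310 and 432) for the difference between the sexes and 727 (361 and 366) for that between the months. Leaving out 1 library gave 5612 to 6102 called genes (2856 to 3125 higher, 2756 to 2977 lower), 4808 to 5255 for the sexes (2337 to 2611 and 2458 to 2644) and 4676 to 5706 for the months (2246 to 2749 and 2421 to 2957). With the compared groups alone the counts were 6563, 5746 and 4381.

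Whether libraries of the same replicate number were paired is not given in the labels. The replicate block gave 6185 called genes (3180 higher and 3005 lower) in June females, 5119 for the sexes and 4992 for the months. Deviations of same-numbered secondary and primary June female libraries correlated at 0.0354, 0.122 and 0.160, and each of these 6 libraries correlated best with its own number. This did not hold in the other pairs of groups. Same-numbered libraries correlated at 0.0430, 0.0430 and -0.0449 in June males and at -0.237, -0.281 and 0.202 in October females. There, secondary library 1 and primary library 2 reached 0.512. Of the values of single genes under an alternative, 4955 stayed on their side of the threshold, 29 lost a call and 7 gained one, the losses being of RARA, BMP4, IL6, ND4, COL17A1, LHX2, DLX3, KRT19 and KRT6A and the gains of WIF1, TBX18 and KRT14, and the cause was not tested. A pseudocount of 0.1 enlarged genes low in 1 group, as it must: STMN2 to 4.36, MAB21L2 to -5.7, SFRP2 to -5.23, FOXD1 to -3.98, STC1 to -3.97, FGF13 to 3.68, ITGA7 to -3.33, IL7 to 3.27, LEPR to -3.19 and ESR1 to -2.36. It also called 2 keratinocyte markers higher. Depth is unknown, so nothing can be said of counting error at low values.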
